A study of Drosophila melanogaster with 6 samples.

Results

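The chemosensory genes followed here through ribosome-associated RNA of fly heads numbered 10. They were the ionotropic co-receptor genes *Ir25a*, *Ir76b* and *Ir8a*, the odorant co-receptor gene *Orco*, the sensory neuron membrane protein genes *Snmp1* and *Snmp2*, and the pickpocket channel genes *ppk23*, *ppk25*, *ppk28* and *ppk29*. They were picked by name, not by their values, though earlier results of these data were known. All 10 were found among the 17489 genes of the count files. The RNA came from male *Gr5a>UAS-Rpl3-3XFLAG* flies, in which a *Gr5a-GAL4* driver puts a FLAG-tagged ribosomal protein into sweet taste neurons, and was recovered by affinity purification of the tagged ribosomes (TRAP). Flies ate a sugar diet with 30% sucrose (SD + OSMI) or a control diet with 5% sucrose (CD + OSMI) from day 5 to day 12 of adult life. OSMI-1, which inhibits O-GlcNAc transferase (OGT), was given to all flies at 10 µM from a solution in DMSO. For each diet, 3 samples of 300 heads were taken, which are replicates 4 to 6 for SD + OSMI and replicates 1 to 3 for CD + OSMI. The question is whether these genes were recovered, at what level, and whether that level differed between the diets while OGT was inhibited.

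Insect ionotropic receptors are cation channels in which a broadly expressed co-receptor, such as Ir25a, Ir76b or Ir8a, combines with subunits that confer odor or taste specificity. Odorant receptors work in the same way, with Orco as the shared subunit that carries the specific subunit to the cilium and forms the channel with it. Snmp proteins are members of the CD36 family of lipid receptors, and ppk proteins are subunits of sodium channels of the DEG/ENaC class, which serve in water and contact pheromone taste. Most of these genes are known from olfactory neurons of the antenna and maxillary palp or from taste neurons other than the sweet ones. Intact heads carry antennae, maxillary palps and taste neurons. The heads were collected with chilled sieves, and whether antennae and palps stayed attached was not tested.

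The libraries held 13324513 to 16122009 counts on SD + OSMI and 15252054 to 15263033 counts on CD + OSMI. Levels are in CPM, a count relative to the library's total after TMM scaling, and errors after ± are standard deviations over 3 replicates. In these units 3 counts, the limit that a count of 0 allows, correspond to 0.188 to 0.226 CPM. Genes of the mitochondrial genome took 3.16% of the counts in SD + OSMI replicate 6 and 1.19 to 1.54% in the other 5 libraries. *Gr5a*, a marker of the labelled cells, had 15, 11 and 11 counts on SD + OSMI and 31, 8 and 14 on CD + OSMI. The sweet receptor genes *Gr64f*, *Gr61a*, *Gr64a* and *Gr43a* had 115, 83, 50 and 27 counts over the 6 libraries. *Gr64b*, *Gr64c*, *Gr64d* and *Gr64e* had none. Whether genes on the same strand overlap them was not examined, so a lack of counts does not show that they were absent. The 9 sweet receptor genes summed to 3.09 to 5.19 CPM on SD + OSMI and 2.68 to 5.75 CPM on CD + OSMI, and 7 bitter receptor genes summed to 2.09 to 2.88 CPM and 1.17 to 2.52 CPM. By contrast, 8 photoreceptor genes summed to 20917 to 25091 CPM on SD + OSMI and 22830 to 29290 CPM on CD + OSMI, although photoreceptors lie outside the *Gr5a* pattern. Summed testis genes (21 genes, 11 of them called higher) were at 946 to 1523 CPM on SD + OSMI and 518 to 799 CPM on CD + OSMI. Summed accessory gland genes (12 genes, 11 tested and 8 called higher) were at 105 to 207 CPM and 56.3 to 86.5 CPM, and neither sum overlapped between the diets. In the other direction, 6 fat body genes, 4 of them called lower, summed to 6307 to 7942 CPM on SD + OSMI and 9159 to 11357 CPM on CD + OSMI, and 4 glial genes to 927 to 985 CPM and 1066 to 1122 CPM, also with no overlap (no glial gene was called by edgeR or limma-voom, 1 was lower by DESeq2, and 1 had an unadjusted p under 0.05 by edgeR). For comparison, edgeR called 9.09% of all tested genes in either direction at an adjusted p under 0.1. Of all tested genes, 10.2% were lower on SD + OSMI without overlap. The part of these lists in the results below was not tested.

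All but 1 of the 10 genes were recovered in every library. *Ir8a* had 0 counts in all SD + OSMI replicates and 2, 0 and 0 counts on CD + OSMI, while each of the others had at least 3 counts in all 6 libraries. A filter of at least 10 counts in at least 3 libraries kept 9 of the 10 genes and 11915 genes overall. None of the 9 genes was called different between the diets by edgeR's quasi-likelihood test at a Benjamini-Hochberg adjusted p under 0.1, against 9.09% of all tested genes (823 higher and 260 lower on SD + OSMI). Neither DESeq2's Wald test nor limma-voom called any of them, although DESeq2 gave no adjusted p for *Orco* and *ppk25*. At an unadjusted p under 0.05 there was 1 of the 9 genes, *Snmp2*, against 21.4% of all tested genes. Log2 fold changes (SD + OSMI over CD + OSMI) were negative for 7 of the 9 genes and for 50.4% of all tested genes, and their median was −0.32, against −0.0027 over all tested genes. In bulk RNA of this kind, fewer cells that express a gene and less RNA per cell cannot be told apart.

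**Figure D1:**
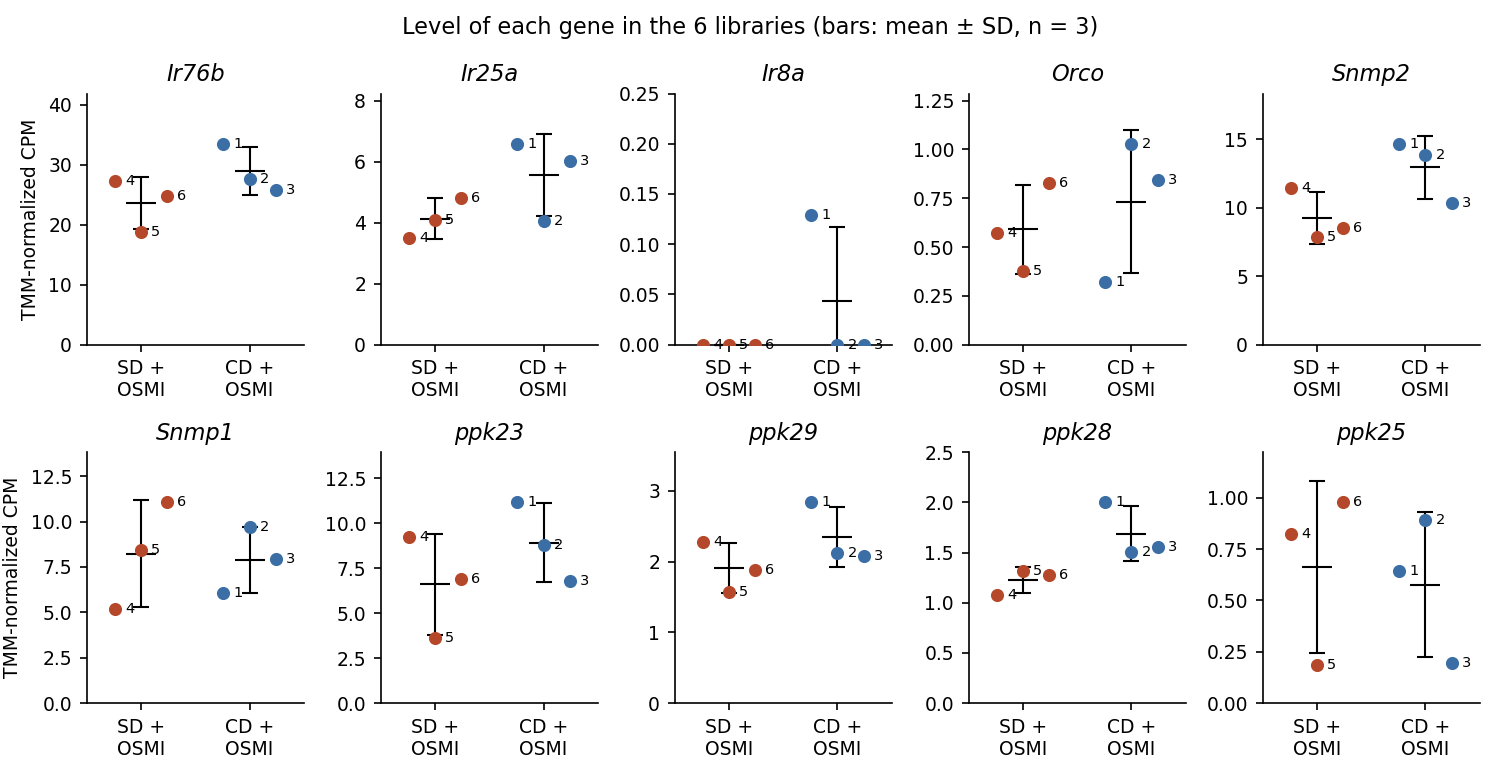
TMM-normalized CPM (vertical axis, own scale from 0 for each gene) of the 10 genes in the SD + OSMI (red, replicates 4 to 6) and CD + OSMI libraries (blue, replicates 1 to 3), with the mean and standard deviation of each diet as black bars. The diets overlap for 8 of the 9 tested genes, and *ppk28* is the one whose SD + OSMI replicates (1.08 to 1.32 CPM) all lie below its CD + OSMI replicates (1.51 to 2.00 CPM).

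*Ir76b*, a co-receptor used in salt, amino acid and fatty acid taste as well as in olfaction, was the most abundant of the 10 genes. It was at 27.2, 18.9 and 24.8 CPM on SD + OSMI (replicates 4, 5 and 6), against 33.5, 27.6 and 25.8 CPM on CD + OSMI (replicates 1, 2 and 3). SD + OSMI replicate 5 was the lowest and CD + OSMI replicate 1 the highest of the 6 libraries, and the diets overlapped because SD + OSMI replicate 4 exceeded CD + OSMI replicate 3. The means were 23.6 ± 4.31 CPM on SD + OSMI and 29.0 ± 4.05 CPM on CD + OSMI, a log2 fold change of −0.29 (SE 0.15, 95% interval −0.61 to 0.02, adjusted p = 0.269 from edgeR). *Ir76b* (FBgn0036937) is on chromosome 3L of BDGP6 from 20108484 to 20111534 on the minus strand, has 5 exons in 1 transcript, and overlaps no other gene. With 2378 counts over the 6 libraries it was also the gene with the narrowest interval.

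*Ir25a*, the co-receptor with the widest expression across olfactory, taste, temperature and humidity neurons, was several times less abundant. Its levels were 3.48, 4.07 and 4.82 CPM on SD + OSMI and 6.59, 4.05 and 6.03 CPM on CD + OSMI. CD + OSMI replicates 1 and 3 stood above all SD + OSMI replicates, whereas CD + OSMI replicate 2 lay among them. The means were 4.12 ± 0.668 CPM on SD + OSMI and 5.56 ± 1.33 CPM on CD + OSMI, a log2 fold change of −0.43 (SE 0.26, 95% interval −0.997 to 0.128, adjusted p = 0.372 from edgeR). *Ir25a* (FBgn0031634) lies on 2L from 4830846 to 4835300 on the minus strand, with 4 transcripts and no overlapping gene. Per kilobase of exon, *Ir76b* exceeded *Ir25a* in every library, by 12.2, 7.20 and 7.99 times on SD + OSMI and by 7.91, 10.6 and 6.63 times on CD + OSMI. This ratio averaged 9.11 ± 2.66 on SD + OSMI and 8.38 ± 2.02 on CD + OSMI, a difference smaller than the spread between replicates.

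*Ir8a*, the co-receptor of acid-sensing neurons in the antenna, was at or under the floor of 3 counts in every library, and no fold change was computed. A count of 0 allows up to 3 counts in a library, that is 0.188 to 0.226 CPM. *Ir8a* (FBgn0052704) spans 9232726 to 9236585 on the X chromosome (minus strand), and a microRNA gene within it, *mir-4916*, shares none of its exon bases. *Ir75a*, the gene of an acetic acid receptor subunit that works with Ir8a in the antenna, had 175, 190 and 153 counts on SD + OSMI and 168, 189 and 137 counts on CD + OSMI. *Ir75a* was set beside *Ir8a* after its values were seen, and it was the most abundant of the ionotropic receptor genes listed below. Over the 6 libraries, other antennal ionotropic receptor genes ranged from 1 count (*Ir84a* and *Ir75d*) and 5 counts (*Ir92a*) to 701 counts (*Ir75b*).

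*Orco*, the co-receptor of nearly all odorant receptors, was close to the limit of detection. It had 9, 6 and 11 counts on SD + OSMI and 5, 15 and 13 counts on CD + OSMI, or 0.570, 0.376 and 0.828 CPM against 0.323, 1.03 and 0.843 CPM. Each diet had high and low replicates and CD + OSMI replicate 1 was the lowest library, so the diets overlapped over most of their range. The means were 0.591 ± 0.227 CPM on SD + OSMI and 0.732 ± 0.366 CPM on CD + OSMI, a log2 fold change of −0.32 (SE 0.61, 95% interval −1.62 to 0.98, adjusted p = 0.818 from edgeR). That interval runs from 0.326-fold to 1.98-fold, so a fall or a rise of that size is not excluded. *Orco* (FBgn0037324) is on 3R from 5407183 to 5412406, on the minus strand, and overlaps no other gene.

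*Snmp2* had the smallest p of the 9 genes. In moths its counterpart is made by the support cells of olfactory sensilla. Levels were 11.4, 7.83 and 8.50 CPM on SD + OSMI and 14.7, 13.9 and 10.3 CPM on CD + OSMI. SD + OSMI replicates 5 and 6 lay below all CD + OSMI replicates, but SD + OSMI replicate 4 exceeded CD + OSMI replicate 3. The means were 9.24 ± 1.90 CPM on SD + OSMI and 12.9 ± 2.31 CPM on CD + OSMI, a log2 fold change of −0.48 (SE 0.20, 95% interval −0.91 to −0.06). The unadjusted p was 0.0272 and the adjusted p was 0.170 from edgeR, which does not pass the threshold. Without SD + OSMI replicate 4 the log2 fold change was −0.65 with an adjusted p of 0.0484, the only setting tried that called any of the 9 genes. In that setting 6.81% of 11756 tested genes were called lower and 20.7% in either direction. Over all settings the adjusted p of *Snmp2* ranged from 0.0484 to 0.503. *Snmp2* (FBgn0035815) lies on 3L from 7733250 to 7743041, minus strand, and *CG32373* on the other strand shares none of its exon bases.

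*Snmp1*, which is needed for the detection of the male pheromone cis-vaccenyl acetate by antennal neurons, varied more within SD + OSMI than between the diets. It was at 5.19, 8.46 and 11.1 CPM on SD + OSMI and 6.07, 9.67 and 7.92 CPM on CD + OSMI, so SD + OSMI held both the lowest and the highest library. The log2 fold change was 0.06 (SE 0.27, 95% interval −0.52 to 0.64, adjusted p = 0.930 from edgeR), and its sign changed when replicate 1 (−0.10) or replicate 6 (−0.20) was left out. The ratio of *Snmp2* to *Snmp1* per kilobase of exon was 1.76, 0.744 and 0.618 on SD + OSMI and 1.94, 1.15 and 1.05 on CD + OSMI. Replicates 4 and 1 had the highest ratio within their diets, and the ranges of the diets overlapped. *Snmp1* (FBgn0260004; 3R, 21165167 to 21168205, minus strand) overlaps *SNF4Agamma* on the other strand, with no exon bases in common. *SNF4Agamma* had 4546 to 5876 counts per library, against 82 to 147 for *Snmp1*.

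The ppk23, ppk25 and ppk29 subunits act in male taste neurons that respond to female contact pheromones, and ppk28 is the channel of water taste neurons. *ppk23* was the most abundant of the 4 genes, at 9.25, 3.63 and 6.92 CPM on SD + OSMI and 11.2, 8.78 and 6.81 CPM on CD + OSMI. SD + OSMI replicate 5 stood far below the other 5 libraries, and without it the diets still overlapped. The means were 6.60 ± 2.82 CPM on SD + OSMI and 8.92 ± 2.18 CPM on CD + OSMI, a log2 fold change of −0.44 (SE 0.31, 95% interval −1.12 to 0.25, adjusted p = 0.467 from edgeR). *ppk29*, whose protein works together with ppk23, was at 2.28, 1.57 and 1.88 CPM on SD + OSMI and 2.84, 2.13 and 2.08 CPM on CD + OSMI. Replicate 5 was again the lowest library and replicate 1 again the highest. The means were 1.91 ± 0.358 CPM on SD + OSMI and 2.35 ± 0.428 CPM on CD + OSMI, a log2 fold change of −0.30 (SE 0.36, 95% interval −1.06 to 0.46, adjusted p = 0.680 from edgeR). Per kilobase, *ppk23* exceeded *ppk29* by 2.69 ± 0.732 times on SD + OSMI and 3.03 ± 0.355 times on CD + OSMI, and replicate 5 had the lowest ratio of all libraries (1.86).

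*ppk28* was the only 1 of the 9 genes without overlap between the diets. It had 17, 21 and 17 counts on SD + OSMI and 31, 22 and 24 counts on CD + OSMI, or 1.08, 1.32 and 1.28 CPM against 2.00, 1.51 and 1.56 CPM. Of all tested genes, 10.2% were likewise lower on SD + OSMI without overlap. The log2 fold change was −0.46 (SE 0.40, 95% interval −1.32 to 0.39, adjusted p = 0.547 from edgeR), which does not pass the test. The whole exon sequence of *ppk28* (FBgn0030795; X, 16806068 to 16808515, plus strand), 2190 bases, is covered by the antisense gene *asRNA:CR44053*, which had 13, 10 and 13 counts on SD + OSMI and 13, 9 and 3 counts on CD + OSMI. Counting appears to have used strand, since 10.9% of 129 genes lying wholly within exons of the other strand had no counts, against 96.7% of 338 genes wholly within exons of the same strand and 9.87% of 11923 genes that share no exon.

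*ppk25*, the third pheromone channel gene, had 13, 3 and 13 counts on SD + OSMI and 10, 13 and 3 counts on CD + OSMI. One replicate of each diet was at the floor of 3 counts, and the diets overlapped over nearly their whole range. The means were 0.663 ± 0.419 CPM on SD + OSMI and 0.577 ± 0.354 CPM on CD + OSMI, a log2 fold change of 0.18 (SE 0.70, 95% interval −1.31 to 1.68, adjusted p = 0.914 from edgeR). Its sign changed when replicate 3 (−0.23), 4 (−0.01) or 6 (−0.19) was left out. *ppk25* (FBgn0053349; 2R, 6950385 to 6952158, plus strand) lies among exons of *CheB42c* and *mim* on the other strand without sharing bases with them. *ppk29* (FBgn0034965; 2R, 24052917 to 24057137, minus strand) shares 119 exon bases with *sei* and 70 with *CG13563*, both on the other strand, and *ppk23* (FBgn0030844; X, 17566552 to 17569228, minus strand) overlaps no gene.

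**Figure D2:**
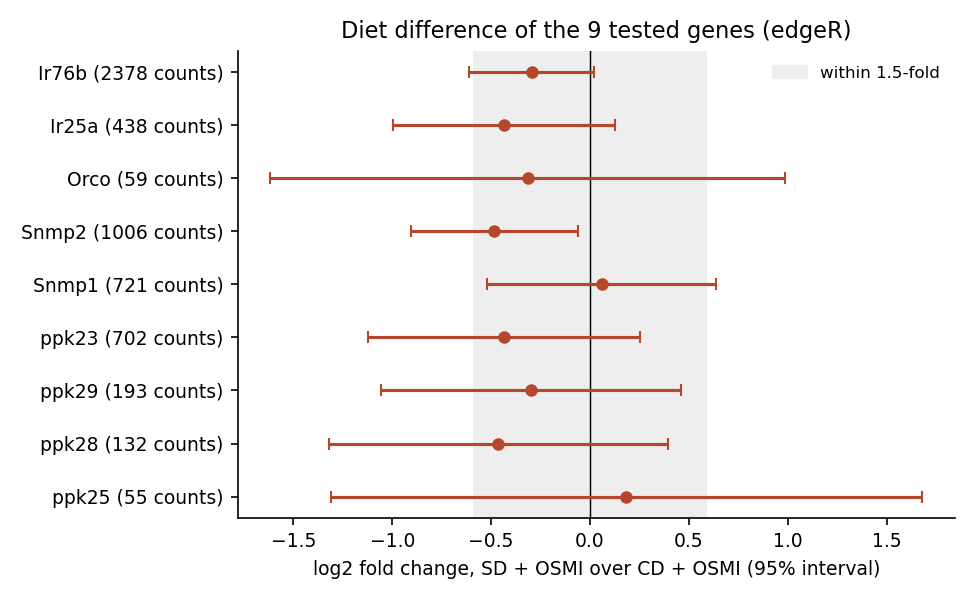
Log2 fold change of SD + OSMI over CD + OSMI (horizontal axis) with its 95% interval from edgeR for the 9 tested genes, with the counts of each gene over the 6 libraries in the row label and the range within 1.5-fold shaded grey. Every point lies within the grey range, every interval reaches beyond it on at least 1 side, and *Snmp2* (−0.91 to −0.06) is the only interval that does not include 0.

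A missed threshold does not show that levels were alike, so the genes were also tested for practical equivalence, with a limit of 1.5-fold and q under 0.05. None of the 9 genes was practically equivalent on the 2 diets, against 47.1% of all tested genes. *Snmp1* (q = 0.0615) and *Ir76b* (q = 0.0952) came closest to that call, and both passed when the estimate and the SE of edgeR replaced those of DESeq2, as did 52.5% of all tested genes. With a limit of 2-fold, *Ir25a*, *Ir76b*, *Snmp1* and *Snmp2* were equivalent, against 69.4% of all tested genes, and *Orco* and the 4 ppk genes were not called. For *ppk28*, for example, the 95% interval ran from 0.400-fold to 1.31-fold, and for *ppk25* from 0.403-fold to 3.20-fold.

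The genes can be compared with each other only per length, and on the scale of CPM per kilobase of exon they spanned a wide range. *Ir76b* led with a mean of 11.4 over the 6 libraries (8.17 to 14.5), which was 2.91 times the next gene and higher than 60.5% of all tested genes. *Snmp2* (3.91), *Snmp1* (3.54) and *ppk23* (3.51) followed and overlapped one another, at a level above 28.7 to 31.3% of tested genes. *ppk23* was above *Ir25a* (1.35) in each of the 6 libraries, by 2.60 times on average, although their ranges overlapped. *Ir25a* and *ppk29* (1.20) did not differ beyond their spread, with *Ir25a* the higher in 4 of 6 libraries. *ppk29* was above *ppk28* (0.665) in 6 of 6 libraries, and their ranges overlapped, as did those of *ppk28* and *ppk25* (0.455) and of *ppk25* and *Orco* (0.341). *Ir8a* came last at 0.00766 CPM per kilobase, below *Orco* in 6 of 6 libraries and without overlap. The CPM of the 10 genes summed to 61.3, 46.3 and 61.0 CPM on SD + OSMI and 77.9, 69.5 and 61.5 CPM on CD + OSMI, with replicates 4 and 6 just under replicate 3.

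*Gr5a*, the gene whose promoter drives the tag, stood within this order at 0.663 CPM per kilobase (0.368 to 1.34). *Ir76b* was 17.2 times as high on that scale, and 7 of the 10 genes had a higher mean than *Gr5a*. *Ir76b*, *Ir25a*, *Snmp1*, *Snmp2*, *ppk23* and *ppk29* were above *Gr5a* in every library, *ppk28* in 4, *ppk25* in 2, *Orco* in 1 and *Ir8a* in none. For this experiment the study reports that RNA of *Gr5a*, *Gr64f*, *Gr64a* and *Ir56D* was enriched over the input, and that of *Gr66a* and *Gr32a* depleted. None of the 10 genes is among those. Enrichment over the input RNA was not analysed here, so these levels do not tell RNA of the tagged neurons from RNA of other cells of the head.

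**Figure D3:**
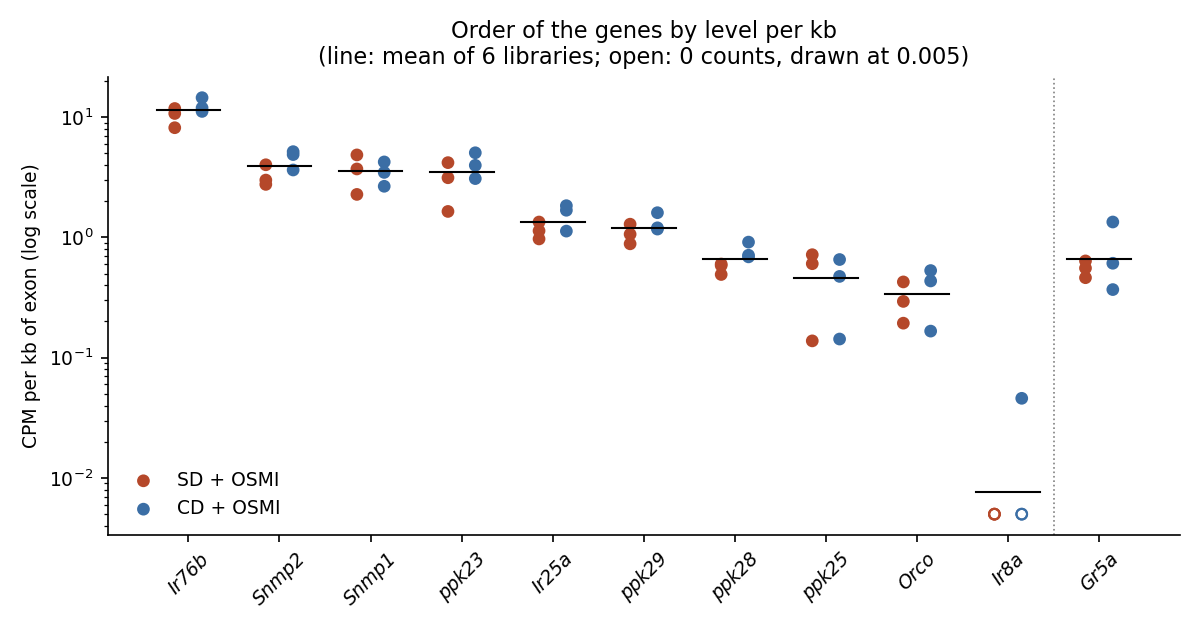
Level of the 10 genes, and of *Gr5a* to the right of the dotted line, in CPM per kilobase of exon on a log axis, for SD + OSMI (red, left) and CD + OSMI (blue, right), with a line at the mean of the 6 libraries and open circles for libraries with 0 counts. *Ir76b* (8.17 to 14.5) lies apart from the rest, *Snmp2*, *Snmp1* and *ppk23* form a group of like level, and *Ir8a* has counts in 1 library.

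The spread between replicates followed no single pattern among the genes. A variance equal to counting error gives a value of 1 for the squared deviations over their expected size (chi-square per degree of freedom). *ppk28* and *ppk29* were near or below it, with 0.211 and 1.06 on SD + OSMI and 0.664 and 1.19 on CD + OSMI, so for these genes counting error alone was as large as the spread seen. *ppk23* was at 19.2 on SD + OSMI and 8.24 on CD + OSMI, *Snmp1* at 15.6 and 6.22, *Ir76b* at 12.5 and 8.73, and *Snmp2* at 6.07 and 6.34. These 4 genes varied between replicates well beyond counting error on both diets. *Ir25a* was at 1.57 on SD + OSMI and 4.75 on CD + OSMI, *Orco* at 1.28 and 2.80, and *ppk25* at 4.13 and 3.30. Over all tested genes, chi-square per degree of freedom between pairs of replicates of a diet was 10.4 to 32.8. These values were scaled by library totals without TMM, unlike those of the single genes.

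**Figure D4:**
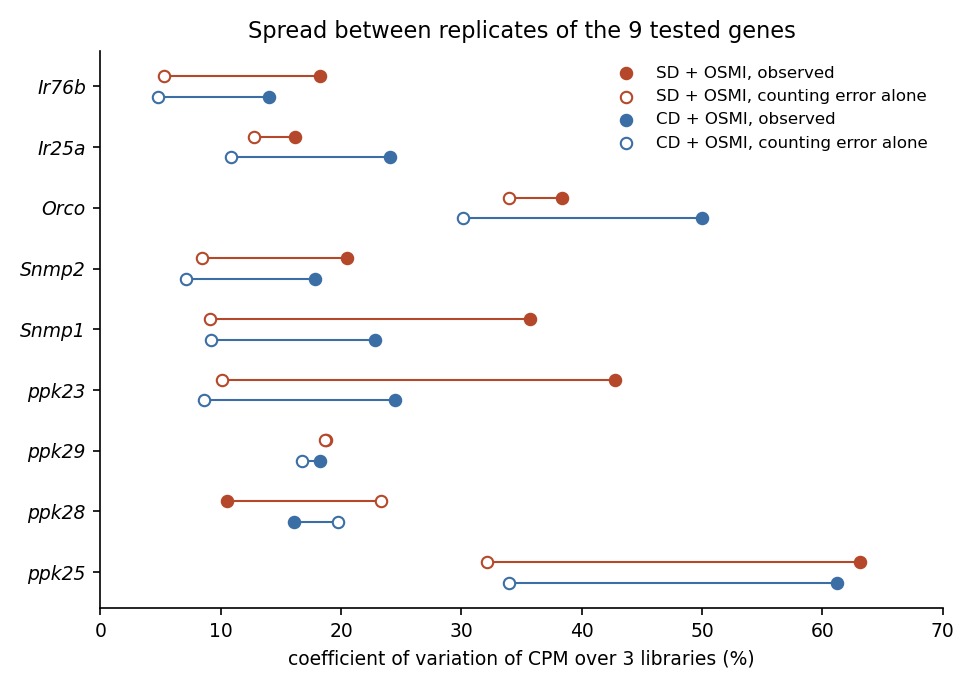
Coefficient of variation of CPM over the 3 replicates of each diet (filled circles) beside the one expected from counting error alone (open circles) for the 9 tested genes, with SD + OSMI in red above CD + OSMI in blue. The filled circle lies far to the right of the open one for *ppk23* and *Snmp1* on SD + OSMI, and to the left of it for *ppk28* on both diets.

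Among the odorant and ionotropic receptor genes, whose products work with these co-receptors, no tested gene passed the test. Of the 59 odorant receptor genes in the annotation, 46 had counts in any library, 6 were tested, and none was called by edgeR, DESeq2 or limma-voom or had an unadjusted p under 0.05. Their median log2 fold change was −0.09, and they summed to 17.7, 19.7 and 16.0 CPM on SD + OSMI and 19.2, 21.9 and 18.9 CPM on CD + OSMI. *Or43b*, the most abundant of them, was at 7.75 ± 1.04 CPM on SD + OSMI and 7.26 ± 1.28 CPM on CD + OSMI. Its mean of 5.32 CPM per kilobase was 15.6 times that of *Orco*, which rests on 59 counts over the 6 libraries. *Or43b* was set beside *Orco* after the values were seen, and 13 of the odorant receptor genes had no counts. *Or71a*, which a gene on the same strand overlaps, and *Or59c*, receptor genes of the maxillary palp, followed at 2.40 and 1.56 CPM over the 6 libraries. Of 63 ionotropic receptor genes other than the co-receptors, 49 had counts, 9 were tested, and again none was called by the 3 tools or had an unadjusted p under 0.05. Their median log2 fold change was 0.08, and their summed level was 48.1 ± 3.64 CPM on SD + OSMI and 49.1 ± 5.87 CPM on CD + OSMI. *Ir75a* (11.5 ± 0.408 CPM on SD + OSMI, 10.9 ± 2.04 CPM on CD + OSMI), its paralog *Ir75b* (7.38 ± 1.27 and 8.04 ± 1.42 CPM) and *Ir85a* (6.45 ± 1.48 and 5.82 ± 1.41 CPM) were the most abundant.

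Among 60 gustatory receptor genes, 45 had counts, 6 were tested, and 1 was called higher, *Gr98a*, against 9.09% of all tested genes called in either direction. *Gr98a* was at 1.52, 1.82 and 1.73 CPM on SD + OSMI and 0.323, 0.343 and 0.843 CPM on CD + OSMI (log2 fold change 1.73, SE 0.51, adjusted p = 0.0699 by edgeR). The call rests on 99 counts and was lost when any 1 of replicates 1, 2, 5 and 6 was left out (adjusted p of 0.132 to 0.239). *Gr64f*, a sweet receptor gene, had 115 counts over the 6 libraries and a log2 fold change of −0.12. The 26 other ppk genes all had counts, 6 were tested, and none was called by the 3 tools or had an unadjusted p under 0.05 (median log2 fold change 0.32). Their most abundant members were *rpk* (3.64 ± 1.65 CPM on SD + OSMI and 2.28 ± 0.780 CPM on CD + OSMI), *ppk22* and *ppk*, a channel gene of pain-sensing neurons of the larval body wall, and all 3 had positive log2 fold changes (0.67, 0.34 and 0.30).

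Of 12 other genes of the CD36 family, to which *Snmp1* and *Snmp2* belong, 11 were tested and 1 was called lower, *CG40006*. Of all tested genes, 9.09% were called in either direction. It was at 21.3, 19.3 and 16.5 CPM on SD + OSMI and 23.4, 33.8 and 33.2 CPM on CD + OSMI (log2 fold change −0.66, SE 0.15, adjusted p = 0.0344 by edgeR). Genes on the same strand overlap it, and the call was lost when any 1 of replicates 2, 3, 5 and 6 was left out (adjusted p of 0.140 to 0.195). The most abundant members of the family were *emp*, *dsb* and *CG10345*, with log2 fold changes of 0.07, −0.15 and −0.18. Of 8 binding proteins of antennal support cells, 4 were tested and none was called by edgeR or limma-voom and 1 was by DESeq2 (2 had an unadjusted p under 0.05 by edgeR), with a median log2 fold change of −0.58. *Obp19d*, an odorant-binding protein gene, averaged 112 CPM on SD + OSMI and 144 CPM on CD + OSMI (log2 fold change −0.36, SE 0.12, adjusted p = 0.107 by edgeR) and made up most of the sum of the list, which was 97.8 to 134 CPM on SD + OSMI and 132 to 163 CPM on CD + OSMI. *lush*, which encodes the binding protein for cis-vaccenyl acetate, had a log2 fold change of −0.80 and *a10* one of −1.24, and neither passed the test.

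*fru* and *dsx* are sex determination genes expressed in the male neurons that hold ppk23, ppk25 and ppk29, but their RNA was not traced to those neurons. Singled out after their values were seen, both were called lower, against 9.09% of all tested genes called in either direction. *fru* was at 136, 130 and 137 CPM on SD + OSMI and 154, 193 and 167 CPM on CD + OSMI (log2 fold change −0.35, SE 0.09, adjusted p = 0.0497 by edgeR). *dsx* was at 64.0, 65.8 and 70.4 CPM on SD + OSMI and 79.9, 111 and 91.2 CPM on CD + OSMI (log2 fold change −0.50, SE 0.11, adjusted p = 0.0282 by the same test). Neither gene overlapped between the diets, and 10.2% of all tested genes were likewise lower on SD + OSMI without overlap. Both *fru* and *dsx* share positions with a gene on the same strand. Both calls were lost when any 1 of replicates 2, 3, 5 and 6 was left out. Whether *ppk23* (−0.44) or *ppk29* (−0.30) differed from *fru* and *dsx* in its change with diet was not tested. 5 general neuronal genes summed, *elav* among them, were at 4701, 3807 and 4007 CPM on SD + OSMI and 4657, 5046 and 4532 CPM on CD + OSMI, with replicate 5 the lowest. *Ir76b*, *Snmp2*, *ppk23* and *ppk29* were lowest in replicate 5 too, but *Ir25a*, *Snmp1* and *ppk28* were lowest in replicate 4 and *Orco* in replicate 1. *ppk25* was at the floor of 3 counts in both replicate 5 and replicate 3. Replicate 5 also had the highest testis sum (1523 CPM). Their part in the levels of these genes was not tested.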

How the data were processed

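Ribosome-associated RNA of 6 libraries, 3 per diet, was analysed from raw counts per gene, without normalization, that the authors deposited in 1 file per library. The libraries were ribo-depleted and made with the Ovation SoLo system. Per the methods and the submitters' processing notes, reads of low quality (under 30) were dropped and the rest aligned with STAR to BDGP6 (dm6), with SAMtools 1.4 also used, and counted with HTSeq. The authors tested diets with DESeq2 1.18.0. The annotation release and strand setting of the count are not given in the sources used here. The names of the files hold the word pooled, with no explanation.

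Symbols, positions and exon lengths came from an Ensembl annotation of BDGP6, which held 17215 of the 17489 genes. Counts were fitted in R 4.3.3 with edgeR 4.0.16 (TMM, robust quasi-likelihood F test, diet as the only term, a minimum of 10 counts in 3 libraries) and adjusted over 11915 genes, with a threshold of 0.1 as in the study. SEs are the fold change over the square root of F. DESeq2 1.42.0 (Wald test and the equivalence test of the study's code) and limma-voom (limma 3.58.1) were run too. Summaries and figures used Python 3.11.15, scipy 1.17.1, pandas 2.3.3, matplotlib 3.10.9 and numpy 2.4.6. The scripts were tested on simulated data. p-values measure the spread between these replicates, which the labels call biological.

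The 10 genes and the lists were chosen with earlier results of these data known. From each list, at most 3 genes by level and any called gene were named, beside *Gr5a*, 2 marker genes (*fru* and *dsx*) that were singled out after their values were seen, and, for *Orco* and *Ir25a*, the 3 genes of most like pattern. *Ir75a* was set beside *Ir8a*, and *Or43b* beside *Orco*, after their values were seen. 3 of the names tried for the CD36 family and 1 of the general neuronal markers matched no gene. The alternatives were other tests, scalings, filters, thresholds, limits of equivalence and gene lengths, each library left out in turn, and, added after seeing the data, mitochondrial genes left out. Input RNA, sequence reads and other diets were not analysed here, and no sequences are printed.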

Additional observations from a re-analysis of the deposited data

How the results depend on the processing

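Of 128 fold changes of the 9 tested genes under alternative settings, 122 kept their direction and their side of the threshold. They include, for each gene, a threshold of 0.05 on the same edgeR fit, which could not alter a gene not called at 0.1. For *Orco* and *ppk25* by DESeq2, which gave no adjusted p, only the direction could be compared. No paired analysis was possible because the diets share no replicate numbers. Over all genes, 823 were higher and 260 lower at an adjusted p under 0.1, and 310 and 90 at one under 0.05. At the threshold of 0.1, the counts ranged from 42 to 1634 higher and from 34 to 800 lower when 1 library was left out, with the fewest without SD + OSMI replicate 6 and the most without SD + OSMI replicate 4. Among the 9 genes, *Snmp2* was called lower without SD + OSMI replicate 4, so that the number of lower genes ranged from 0 to 1. When 1 library was left out, the log2 fold change ranged from −0.20 to 0.32 for *Snmp1* (negative at −0.10 without CD + OSMI replicate 1) and from −0.23 to 0.64 for *ppk25* (also −0.01 and −0.19 without SD + OSMI replicates 4 and 6). The number of equivalent genes was 4 with a 2-fold limit and 2 with the estimate and SE of edgeR, and between 0 and 1 with 1 library left out (*Ir76b* without SD + OSMI replicate 5). Of the related lists, 0 gustatory receptor genes were higher at an adjusted p under 0.05. A filter of at least 50 counts left none of them to test, since *Gr64f*, the most abundant, had at most 30 counts in a library. By DESeq2, with RLE or upper-quartile factors and with no filter, 1 antennal binding protein was called lower. With 1 library left out, between 0 and 2 ionotropic receptors and CD36 genes were lower, and between 0 and 1 gustatory receptors and other ppk genes were higher and antennal binding proteins lower. The causes were not tested. A filter of at least 50 counts left *Orco*, *ppk25*, *ppk28* and *ppk29* without a value. *Orco* also had no value when replicate 2, 3 or 6 was left out, because it then missed the filter of 10 counts in 3 libraries. Without the 20 most abundant genes CPM are higher by construction, 31.8 CPM for *Ir76b*. Depth limits *Orco*, *ppk25* and *Ir8a* most.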

Other observations

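The genes whose log2 CPM followed those of 2 co-receptors most closely over the 6 libraries were, for *Orco*, *CG6656* (Pearson r = 0.99), *Acat1* (0.98) and *Dnz1* (0.98), and, for *Ir25a*, *COX7B* (0.99), *Vps24* (0.99) and *CG4452* (0.98). They were taken from 8147 genes with a mean of at least 5 CPM, of which 54 had r above 0.9 with *Orco* and 54 with *Ir25a*. The 6 points share their libraries and depth, and *Orco* rests on 5 to 15 counts in each, so these values are a description only.

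Chordotonal neurons, the hearing and stretch cells of the antenna, were followed by *nompC*, *iav* and *nan*. These genes summed to 6.70 to 7.75 CPM on SD + OSMI and 8.52 to 12.8 CPM on CD + OSMI. The sums did not overlap, but neither of the 2 tested genes was called by edgeR, DESeq2 or limma-voom (1 had an unadjusted p under 0.05 by edgeR), and 10.2% of all tested genes were lower on SD + OSMI without overlap. The carbon dioxide receptor genes *Gr21a* and *Gr63a* of antennal neurons summed to 0.0626 to 0.452 CPM on SD + OSMI and 0.206 to 0.646 CPM on CD + OSMI. Summed over 14 antennal ionotropic receptor genes, the level was 28.7 ± 2.39 CPM on SD + OSMI and 27.1 ± 2.80 CPM on CD + OSMI, with overlap.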
